A study of Mus musculus with 71 samples.

Results

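A set of 10 genes of natural killer (NK) cells and other cytotoxic lymphocytes was followed in mouse whole blood, selected by symbol: Ncr1, Klrb1c, Klrk1, Klrd1, Gzma, Gzmb, Prf1, Tbx21, Eomes and Nkg7. All 10 were present among the 10508 genes of the normalized table and among the 55416 genes of the count table. Blood came from 71 mice of the HOCl-induced model of systemic sclerosis (SSc), in which hypochlorous acid injected into the skin produces inflammation and fibrosis. The groups were 11 control mice given PBS, 12 HOCl mice without antibody, and 12 HOCl mice each with the monoclonal antibody (mAb) E07 or D11 against galectin-3 (Gal-3), or with a treatment labelled D06 or BPR21. For the control, HOCl, E07 and D11 groups, the study's methods describe female BALB/c AnNRj mice that entered at 6 weeks of age, HOCl given intradermally on 5 days per week for 6 weeks, and E07 and D11 given subcutaneously at 20 mg/kg every 5 days. The D06 and BPR21 mice carry the same HOCL label, but what D06 and BPR21 are, their doses, and the age and HOCl schedule of these mice are not given in the sources used here. Only the sample titles separate control from HOCl mice, whose other labels are the same, and the study's groups were kept in separate cages, so that group and cage cannot be told apart.

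NK cells kill infected, stressed or transformed cells without prior sensitization. They read a balance of activating and inhibitory receptors at their surface, and on activation release granules that hold perforin, which opens the membrane of the target, and granzymes, proteases that enter and start cell death. Their development and effector program depend on the T-box factors T-bet and Eomes. Cytotoxic CD8+ T cells share the granule proteins, T-bet, NKG2D and CD94, so of these 10 genes Ncr1 is the one most restricted to NK cells in blood. In whole blood, fewer NK cells and less RNA per NK cell cannot be told apart.

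The total count per mouse lay between 11932855 and 15948972, and the group ranges overlapped. The deposited normalized values come from the vst function of DESeq2, which scales libraries by size factors and is close to log2 for abundant genes. On this scale, called vst values here, the changes of genes with few counts are flattened. The size factors averaged 1.29 ± 0.26 (SD, n = 11) in control mice, 1.28 ± 0.17 (n = 12) in E07 mice and 0.874 to 0.985 in the other groups. The erythroid list, 30 genes that developing red cells express, took 9.75% ± 3.27 (n = 11) of the counts in control mice, 9.20% ± 2.05 (n = 12) in E07 mice and 12.0% to 15.4% on average in the other groups. For HOCl mouse 8 there are counts alone, which leaves 11 HOCl mice in tests on vst values. Markers of T cells, B cells, monocytes, neutrophils, platelets and red cell precursors were detected in these libraries.

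The members are spread over 7 chromosomes (GRCm39, also called mm39, positions of the GENCODE vM39 annotation). Klrb1c (chr6:128755448-128766178, minus strand), Klrd1 (chr6:129568677-129575738, plus) and Klrk1 (chr6:129587286-129600827, minus) lie together in the NK gene complex, a polymorphic cluster of lectin-like receptor genes. Ncr1 (chr7:4340710-4348171, plus) and Nkg7 (chr7:43086497-43087678, plus) share a chromosome at a distance. The others are Eomes (chr9:118307280-118315200, plus), Prf1 (chr10:61133546-61140461, plus), Tbx21 (chr11:96988897-97006158, minus), Gzma (chr13:113230355-113237524, minus) and Gzmb (chr14:56496295-56499717, minus). The reference genome is of C57BL/6 origin while the study's mice were BALB/c, and the effect of strain differences on read mapping was not tested.

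Per length, Gzma was the most abundant member, with a median of 109 CPM per kilobase of exon over 71 mice (range 26.8 to 218), CPM being counts scaled to the total count of each mouse. Nkg7 followed with a median of 46.5, then Klrd1 with 26.9, Ncr1 with 25.2, Prf1 with 13.2 and Gzmb with 8.21. Klrb1c (3.27), Eomes (3.14), Klrk1 (2.70) and Tbx21 (2.36) were the lowest on this scale, which divides by all annotated exons of a gene. In raw counts, Gzma had a median of 2306 per mouse and Tbx21 one of 78, with 6 counts in the lowest mouse. No member was at 0 counts in any mouse.

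Ncr1, Gzma, Nkg7 and Tbx21 differed among the 6 groups by the F-test given further on, and their RefSeq promoter windows on GRCm38.p6, from 250 bases before to 50 after the start, are shown to let their sequence be compared. Capitals mark the Runx motif TGTGGT on either strand and the T-box motif AGGTGTGA, named for 2 families of transcription factors that act in NK cells. Nkg7 (chr7:43436888-43437187, plus strand) holds both, Ncr1 (chr7:4337465-4337764, plus) holds the Runx motif 2 times, Gzma (chr13:113100932-113101231, minus) holds it once, and Tbx21 (chr11:97115282-97115581, minus) holds neither.
Ncr1: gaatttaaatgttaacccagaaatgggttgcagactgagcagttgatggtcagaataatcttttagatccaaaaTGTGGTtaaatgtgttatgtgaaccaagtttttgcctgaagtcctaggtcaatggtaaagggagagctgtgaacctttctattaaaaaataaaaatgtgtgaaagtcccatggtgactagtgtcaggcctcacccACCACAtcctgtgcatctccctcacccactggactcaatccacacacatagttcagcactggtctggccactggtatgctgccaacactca
Gzma: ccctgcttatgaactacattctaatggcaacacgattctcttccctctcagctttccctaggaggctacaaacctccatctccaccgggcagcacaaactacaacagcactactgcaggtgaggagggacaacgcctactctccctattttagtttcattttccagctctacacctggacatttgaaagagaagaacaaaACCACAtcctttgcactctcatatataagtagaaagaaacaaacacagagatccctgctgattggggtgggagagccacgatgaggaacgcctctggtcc
Nkg7: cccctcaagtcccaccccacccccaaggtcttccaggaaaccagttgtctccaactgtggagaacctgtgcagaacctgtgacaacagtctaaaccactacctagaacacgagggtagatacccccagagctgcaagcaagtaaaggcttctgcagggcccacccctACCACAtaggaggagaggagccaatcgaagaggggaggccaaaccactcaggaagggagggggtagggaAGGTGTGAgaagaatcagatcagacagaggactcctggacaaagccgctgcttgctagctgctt
Tbx21: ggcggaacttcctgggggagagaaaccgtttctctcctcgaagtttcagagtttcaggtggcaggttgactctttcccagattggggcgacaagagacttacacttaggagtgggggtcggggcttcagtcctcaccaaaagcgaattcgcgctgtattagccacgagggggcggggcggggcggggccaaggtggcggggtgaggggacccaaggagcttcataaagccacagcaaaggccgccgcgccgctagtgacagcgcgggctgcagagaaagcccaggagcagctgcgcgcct

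Of the 9 members with a promoter entry, 7 held the Runx motif (Ncr1, Klrb1c, Klrk1, Gzma, Gzmb, Prf1 and Nkg7), against 16.8% of 32817 promoters of the same length. The 2 without it were Tbx21 and Eomes, the transcription factors. In Ncr1 the motif starts 176 and 41 bases before the gene's start, in Gzma 50 bases before it and in Nkg7 83 bases before it. AGGTGTGA was in 1 of 9 members, Nkg7, where it starts 14 bases before the start, and in 1.27% of all promoters. Its core GGTGTG, which lies within that motif, was also in Nkg7 alone, against 19.1% of promoters. These matches describe letters, and no binding was measured. Klrd1 had no entry.

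Whether a member differed anywhere among the 6 groups was asked first, with limma's moderated F-test on vst values and Benjamini-Hochberg adjustment over 10508 genes. Ncr1 (FDR = 0.0037), Gzma (FDR = 0.0082), Tbx21 (FDR = 0.02) and Nkg7 (FDR = 0.04997) passed an FDR of 0.05, that is 4 of 10 members where 18.3% of all genes passed. Klrk1 came next at 0.076 and Prf1 at 0.21, while Gzmb, Klrd1, Klrb1c and Eomes lay between 0.36 and 0.55. With edgeR on counts, 2 members passed, Ncr1 (FDR = 0.0050) and Gzma (0.0057), where 14.5% of all genes did, with Tbx21 at 0.053 and Nkg7 at 0.12. A score of the erythroid list (its mean z-scored vst value) was also added to limma's F-test as a covariate. Ncr1 (FDR = 0.033), Gzma (0.038) and Tbx21 (0.045) then passed and Nkg7 (0.14) did not, where 349 of 10508 genes passed.

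By group mean, the highest value belonged to control mice for 5 members (Ncr1, Klrb1c, Klrd1, Prf1 and Tbx21) and to D06 mice for the other 5. BPR21 mice had the lowest mean for 7 members and one of the lowest 2 for all 10. HOCl mice were lowest for Klrk1 and Klrd1, and D11 mice for Nkg7. The place of D11 for Nkg7 rested on D11 mouse 10, without which its mean was 9.33, above those of HOCl (9.29) and BPR21 (9.22) mice. Of the 50 pairs of neighbours in these orders, 0 differed by limma at FDR of 0.05 and a fold-change of 1.3. The nearest to that threshold was Tbx21 in E07 against BPR21 mice, at FDR = 0.087.

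**Figure D1:**
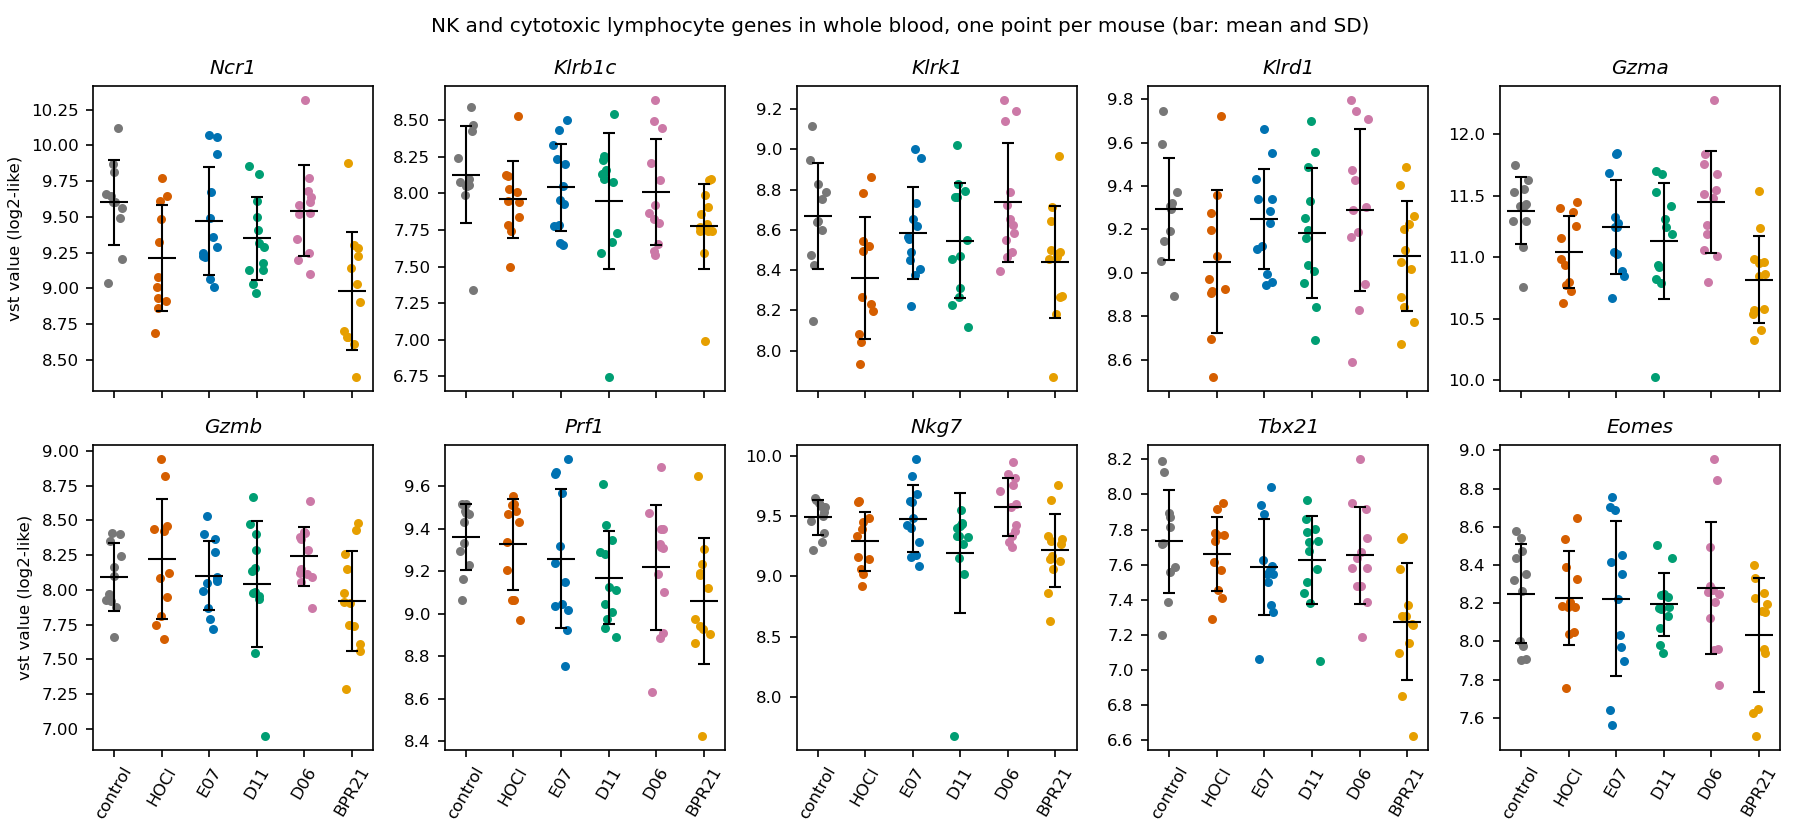
Vst values (log2-like, y axis) of the 10 members by group (x axis), with one point per mouse and a black bar for mean and SD (n = 11 for control and HOCl, 12 for the others). BPR21 mice have the lowest mean in 7 panels, and every group overlaps the others in every panel.

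Ncr1 encodes NKp46, an activating receptor of NK cells. Its vst values (lowest, median and highest mouse) were 9.04, 9.61 and 10.12 in control mice, 8.69, 9.08 and 9.77 in HOCl mice and 8.38, 8.97 and 9.88 in BPR21 mice. They were 9.01, 9.32 and 10.07 in E07 mice, 8.97, 9.30 and 9.85 in D11 mice, and 9.10, 9.55 and 10.32 in D06 mice. The groups overlapped, but 7 of 12 BPR21 mice lay below every control mouse, 4 of 12 BPR21 mice below every HOCl mouse, and 5 of 11 HOCl mice below every control mouse, while 1 BPR21 mouse (mouse 8) lay above the control median.

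Gzma encodes granzyme A, a tryptase of the cytotoxic granules. It measured 10.76, 11.42 and 11.75 (lowest, median, highest vst value) in control mice, 10.63, 10.99 and 11.45 in HOCl mice and 10.33, 10.86 and 11.54 in BPR21 mice. The values were 10.67, 11.24 and 11.85 in E07 mice, 10.03, 11.22 and 11.70 in D11 mice, and 10.80, 11.50 and 12.28 in D06 mice. As for Ncr1, the BPR21 group had the lowest median, with 5 of 12 mice below every control mouse. The lowest single value was that of D11 mouse 10 (10.03), and the groups overlapped.

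Tbx21 encodes T-bet, which drives the effector program of NK and type 1 T cells. Its vst values were 7.20, 7.72 and 8.19 (lowest, median, highest) in control mice, 7.29, 7.73 and 7.95 in HOCl mice and 6.63, 7.28 and 7.76 in BPR21 mice. The medians were 7.56 in E07 mice, 7.70 in D11 mice and 7.61 in D06 mice. The BPR21 group had the lowest median, with 6 of its 12 mice below every HOCl mouse, and the groups overlapped.

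Nkg7 encodes a membrane protein of the cytotoxic granules needed for their release. It measured 9.22, 9.53 and 9.65 (lowest, median, highest) in control mice, 8.92, 9.33 and 9.63 in HOCl mice, and 8.63, 9.22 and 9.75 in BPR21 mice. In D06 mice it was 9.24, 9.58 and 9.94, in E07 mice 9.09, 9.46 and 9.97, and in D11 mice 7.68, 9.33 and 9.55. The D06 group had the highest median and its lowest mouse lay above the median of BPR21 mice, while the ranges overlapped.

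Of the remaining receptors, Klrb1c encodes NKR-P1C, the NK1.1 antigen of C57BL/6 mice, and its group means ran from 7.78 (BPR21) to 8.13 (control). Klrk1 encodes the activating receptor NKG2D, with means of 8.36 (HOCl) to 8.74 (D06). Klrd1 encodes CD94, the partner of NKG2A in an inhibitory receptor, with means of 9.05 (HOCl) to 9.29 (control and D06). Of the granule genes, Gzmb (granzyme B) had means of 7.92 (BPR21) to 8.24 (D06), and Prf1 (perforin) of 9.06 (BPR21) to 9.36 (control). Eomes, the T-box factor paired with T-bet, had means of 8.03 (BPR21) to 8.28 (D06). The SDs within groups were 0.16 to 0.47 for these 6 members.

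Some mice were low or high for many members at once. D11 mouse 10 was the lowest D11 mouse for 7 members, with vst values of 7.68 for Nkg7 (the other 11 mice from 9.02 to 9.55), 6.95 for Gzmb (7.55 to 8.67) and 10.03 for Gzma (10.79 to 11.70). Its Ncr1 was 9.03 against 8.97 to 9.85 in the other 11, so this mouse did not stand apart for Ncr1. Control mouse 4 was the lowest control mouse for 7 members, E07 mouse 12 the lowest of its group for 6, and E07 mouse 1 the highest of its group for 7.

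The effect of HOCl itself was tested by comparing HOCl with control mice. By limma on vst values (FDR of at most 0.05 and fold-change of at least 1.3), 0 of 10 members passed, where 4.96% of all genes did. Of the 10 members, 9 had a lower mean in HOCl mice, with a median difference of -0.18 (log2) against -0.02 over all genes. The differences were -0.39 ± 0.13 (SE) for Ncr1 (FDR = 0.090), -0.33 ± 0.12 for Gzma (FDR = 0.096), -0.31 ± 0.12 for Klrk1 (FDR = 0.133) and -0.24 ± 0.12 for Klrd1 (FDR = 0.278). For Gzma, 10 of 11 HOCl mice lay below the control median, as did 9 of 11 for Klrk1, Klrd1 and Nkg7. Gzmb was the exception, at 0.13 ± 0.14 (FDR = 0.69). At an unadjusted p under 0.05, 5 members passed, where 1885 of 10508 genes did, and edgeR and DESeq2 called 0. Without control mouse 4, Ncr1 (FDR = 0.037) and Gzma (FDR = 0.025) passed, and without HOCl mouse 1 Ncr1 did (FDR = 0.035). These 2 fits called 566 and 609 of 10508 genes, against 521 in the main fit.

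Beside these values, the erythroid list had 26 of 30 genes called higher in HOCl than in control mice (median difference 1.22), the platelet list 5 of 11 (0.44) and the neutrophil list 3 of 13 (0.47). The T-cell list had 0 of 20 called and a median of -0.14. The part of these cells in the members' values was not tested.

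The treatments were then compared with HOCl mice, the same mice serving in all 4 comparisons. In E07 mice, 0 of 10 members passed (background 7.89%), 6 being higher and 4 lower. Klrk1 was 0.23 ± 0.11 higher (FDR = 0.16) and above the HOCl median in 11 of 12 mice, Ncr1 was 0.26 ± 0.14 higher (FDR = 0.24) and above it in 10 of 12, and the 95% interval for Ncr1 was -0.03 to 0.55. Gzmb (-0.12), Prf1 (-0.07) and Tbx21 (-0.08) had the other sign. At an unadjusted p under 0.05, 1 member passed, where 2996 of 10508 genes did, and edgeR and DESeq2 called 0.

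In D11 mice, 0 of 10 passed against HOCl (background 0.0571%), and 0 did by edgeR or by DESeq2. At an unadjusted p under 0.05, 0 members passed, where 1483 of 10508 genes did. The largest differences were 0.19 ± 0.12 for Klrk1 and -0.18 ± 0.17 for Gzmb, and Prf1 (-0.16 ± 0.09, FDR = 0.46) was below the HOCl median in 11 of 12 mice. Without D11 mouse 10 the count was also 0.

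In D06 mice, 0 of 10 passed against HOCl (background 0.133%), and 4 did at an unadjusted p under 0.05, where 1338 of 10508 genes did. Gzma was 0.41 ± 0.14 higher (FDR = 0.21), Klrk1 0.38 ± 0.12 higher (FDR = 0.17), Ncr1 0.33 ± 0.14 higher (FDR = 0.30) and Nkg7 0.28 ± 0.10 higher (FDR = 0.24). All 12 D06 mice lay above the HOCl median for Ncr1 and Klrk1, and 11 for Gzma, while 10 of 12 lay below it for Prf1 (-0.11 ± 0.11). DESeq2 on counts called Gzma (FDR = 0.042) and Klrk1 (FDR = 0.047) higher, and edgeR called 0. In that fit of 25801 genes DESeq2 called 218, which is 3.24% of the 6734 genes with an FDR.

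In BPR21 mice, 0 of 10 passed against HOCl (background 0.638%), and edgeR and DESeq2 called 0. At an unadjusted p under 0.05, 2 members passed (Tbx21 and Prf1), where 1474 of 10508 genes did. Tbx21 was -0.38 ± 0.11 (FDR = 0.11), Gzmb -0.30 ± 0.15, Prf1 -0.27 ± 0.11 (FDR = 0.26) and Gzma -0.23 ± 0.13. Klrk1 (0.08 ± 0.12) and Klrd1 (0.03 ± 0.12) did not share that sign. Tbx21 passed with the erythroid score as a covariate (-0.47, FDR = 0.019), a fit that called 2.19% of all genes, over a range of 0.019 to 0.53 among 9 alternatives.

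Against control mice, BPR21 was the group in which members passed. Ncr1 was lower by 0.62 ± 0.14 on the log2 scale (-0.62, 95% interval -0.91 to -0.33, 1.54-fold, FDR = 0.040), and Gzma was lower by 0.56 ± 0.13 (-0.56, interval -0.82 to -0.30, 1.47-fold, FDR = 0.039). For each of these genes, 11 of 12 BPR21 mice lay below the control median. These were 2 of 10 members, where 0.504% of all genes passed, and all 10 members were lower, with a median difference of -0.29 against -0.01 over all genes. Tbx21 (-0.46 ± 0.13, FDR = 0.070), Klrb1c (-0.35 ± 0.12, FDR = 0.13), Prf1 (-0.30 ± 0.10, FDR = 0.11) and Nkg7 (-0.28 ± 0.10, FDR = 0.14) came next and did not pass.

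Both calls lay near the threshold. edgeR called the same pair (Ncr1 -0.75, FDR = 0.042, and Gzma -0.60, FDR = 0.036) with 0.908% of 12994 genes. DESeq2 called these and Tbx21 (-0.95, FDR = 0.030) with 4.25% of the 13482 genes with an FDR. With the erythroid score as a covariate neither passed (Ncr1 -0.59, FDR = 0.39, and Gzma -0.54, FDR = 0.37), and 0% of all genes did. Over 9 alternatives the FDR ran from 0.0071 to 0.39 for Ncr1 and from 0.0051 to 0.37 for Gzma. Over 23 fits that each left out 1 mouse, the difference ran from -0.70 to -0.56 for Ncr1 and from -0.63 to -0.52 for Gzma, and the FDR from 0.014 to 0.088 and 0.014 to 0.083. Both calls were lost without BPR21 mouse 3, 5, 6, 7, 9 or 12 or control mouse 1, 2, 6, 7, 8, 9, 10 or 11, leaving 0 members, and Ncr1 was lost without BPR21 mouse 11, leaving 1. Tbx21 was gained without BPR21 mouse 1 or control mouse 4 or 12, giving 3, in fits that called 488, 80 and 650 of 10508 genes. The 14 fits that left 0 members called 19 to 65 genes, against 53 in the main fit.

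The E07, D11 and D06 groups gave 0 members against control mice (background 0.00952%, 0.0761% and 7.88%), by edgeR and by DESeq2 too. At an unadjusted p under 0.05, 0, 2 and 0 members passed, where 799, 1697 and 2436 of 10508 genes did. In D11 mice all 10 members were lower than in control mice, by a median of -0.15, with Prf1 at -0.19 ± 0.08 (FDR = 0.25) and Ncr1 at -0.25 ± 0.12 (FDR = 0.28). In E07 mice the differences ran from -0.15 (Tbx21) to 0.01 (Gzmb), and in D06 mice from -0.14 (Prf1) to 0.15 (Gzmb). For Ncr1 the 95% interval was -0.40 to 0.14 in E07 and -0.31 to 0.20 in D06 mice, so that differences of these sizes could not be told from 0.

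**Figure D2:**
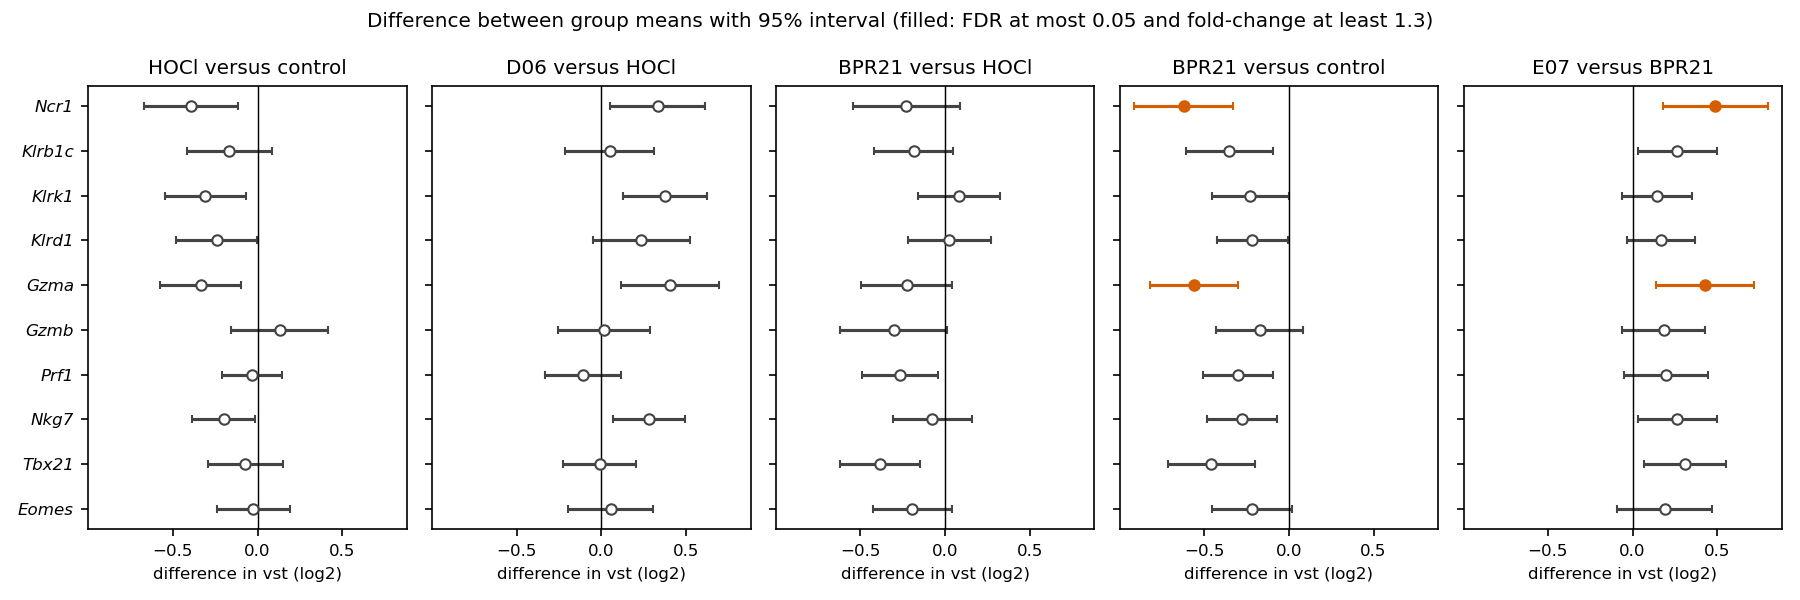
Difference between group means in vst value (log2, x axis) with its 95% interval for each member (y axis) in 5 comparisons, filled where FDR is at most 0.05 and the fold-change at least 1.3. Ncr1 and Gzma are filled in BPR21 against control mice (-0.62 and -0.56) and in E07 against BPR21 mice (0.49 and 0.43).

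Treated groups were also compared with each other, a comparison chosen with the group means known. Between E07 and BPR21 mice, 2 of 10 members passed (background 7.26%). Ncr1 was higher in E07 mice by 0.49 ± 0.15 (1.40-fold, FDR = 0.038), with 12 of 12 E07 mice above the BPR21 median, and Gzma by 0.43 ± 0.14 (1.34-fold, FDR = 0.048), with 10 of 12. All 10 members had this sign, with Tbx21 at 0.31 ± 0.12 (FDR = 0.087). edgeR (9.44% of 12899 genes) and DESeq2 (11.1% of the 13514 genes with an FDR) called the same pair. With the erythroid score as a covariate neither passed (Ncr1 0.35, FDR = 0.67, and Gzma 0.37, FDR = 0.65), and 0% of all genes did. Over 7 alternatives the FDR ran from 0.0060 to 0.67 for Ncr1, called in 6, and from 0.0060 to 0.65 for Gzma, called in 4. Total-count scaling, 1 of these alternatives, called 45.8% of all genes. Over 24 fits that left out 1 mouse, Ncr1 ran from 0.43 to 0.57 and Gzma from 0.37 to 0.49. Both calls were lost without E07 mouse 1, 2, 4, 8, 9 or 11 or BPR21 mouse 3, 5, 6, 9, 11 or 12, leaving 0 members. Gzma alone was lost without E07 mouse 3, 6 or 10 or BPR21 mouse 4 or 7, leaving 1. Fits that left 0 members called 436 to 771 of 10508 genes, and those that left 1 called 511 to 882. The 7 fits that kept both called 595 to 1012, against 763 in the main fit.

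The other pairs of treated groups gave 0 of 10 members by limma. The background was 4.57% for E07 against D11, 9.76% for E07 against D06, 0% for D11 against D06, 0% for D11 against BPR21 and 0.0571% for D06 against BPR21. At an unadjusted p under 0.05, 0, 0, 1, 2 and 6 members passed, where 2192, 2922, 655, 621 and 939 of 10508 genes did. The widest difference was in Gzma, 0.63 ± 0.15 higher in D06 than in BPR21 mice (interval 0.33 to 0.93, FDR = 0.10), and Ncr1 was 0.56 ± 0.14 higher there (FDR = 0.18) with 12 of 12 D06 mice above the BPR21 median.

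The choice of library scaling moved these counts. With log2(CPM + 1), where CPM divides by the total count of each mouse, the median of all genes differed by -0.47 between HOCl and control mice, 0.49 between E07 and HOCl, -0.57 between D06 and control, -0.38 between BPR21 and control and 0.41 between E07 and BPR21. Counts of members called were 7 for HOCl against control (52% of all genes), 7 for E07 against HOCl (65.5%), 8 for D06 against control (67%), 8 for BPR21 against control (6.45%) and 10 for E07 against BPR21 (45.8%). Relative to those medians, Ncr1 differed by -0.48 in HOCl against control, 0.32 in E07 against HOCl, -0.06 in D06 against control and -0.77 in BPR21 against control. Gzma differed by -0.37, 0.22, 0.07 and -0.61 in the same comparisons. Some members had the other sign on the CPM scale before the shift of all genes was taken off, among them Gzmb in HOCl against control (0.13 as vst, -0.28 as CPM) and in E07 against HOCl (-0.12 and 0.31). Relative to the median of all genes, Gzmb was at 0.19 and -0.18 in these comparisons, and in E07 against HOCl Prf1 was at -0.09, Tbx21 at -0.20 and Eomes at -0.05, each with the sign of its vst difference. In D06 against control, Klrk1 (0.11), Gzma (0.07), Gzmb (0.27), Nkg7 (0.10) and Eomes (0.07) lay above that median, as their vst differences lay above 0.

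**Figure D3:**
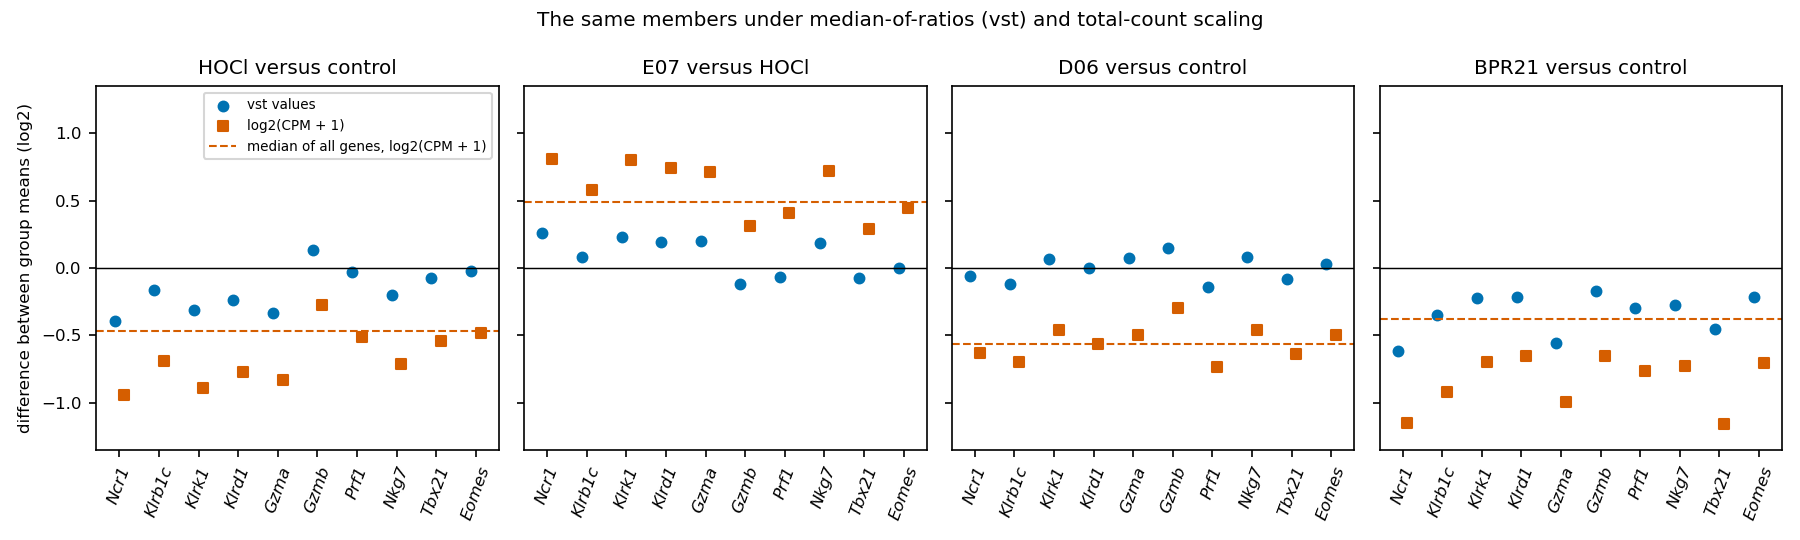
Difference between group means (log2, y axis) of the 10 members (x axis) in 4 comparisons, as vst values (circles) and as log2(CPM + 1) (squares), with the median of all genes on the CPM scale as a dashed line. In BPR21 against control mice all 10 squares lie below the dashed line at -0.38, while in D06 against control mice they lie on both sides of the line at -0.57.

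HOCl mouse 8, which has counts only, had 204 counts of Ncr1, 1369 of Gzma, 93 of Tbx21 and 687 of Nkg7. As CPM, its Ncr1 (17.1) ranked second lowest of 12 HOCl mice and its Nkg7 (57.6) highest, above the 15.5 to 53.9 of the other 11. Gzmb (5.11) was the lowest.

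Across the 70 mice of the vst table, with group means removed, the members moved together to unequal degrees. The median Pearson r of the 45 pairs was 0.38, from 0.05 (Gzmb with Eomes) to 0.81 (Ncr1 with Gzma). Ncr1 also followed Klrk1 (0.68) and Klrd1 (0.60), and Gzma followed Klrd1 (0.67), Klrk1 (0.66) and Gzmb (0.63). Eomes was at 0.08 with Klrd1 and Klrb1c at 0.12 with Nkg7. The mice share library scaling and blood composition, so these values are a description.

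**Figure D4:**
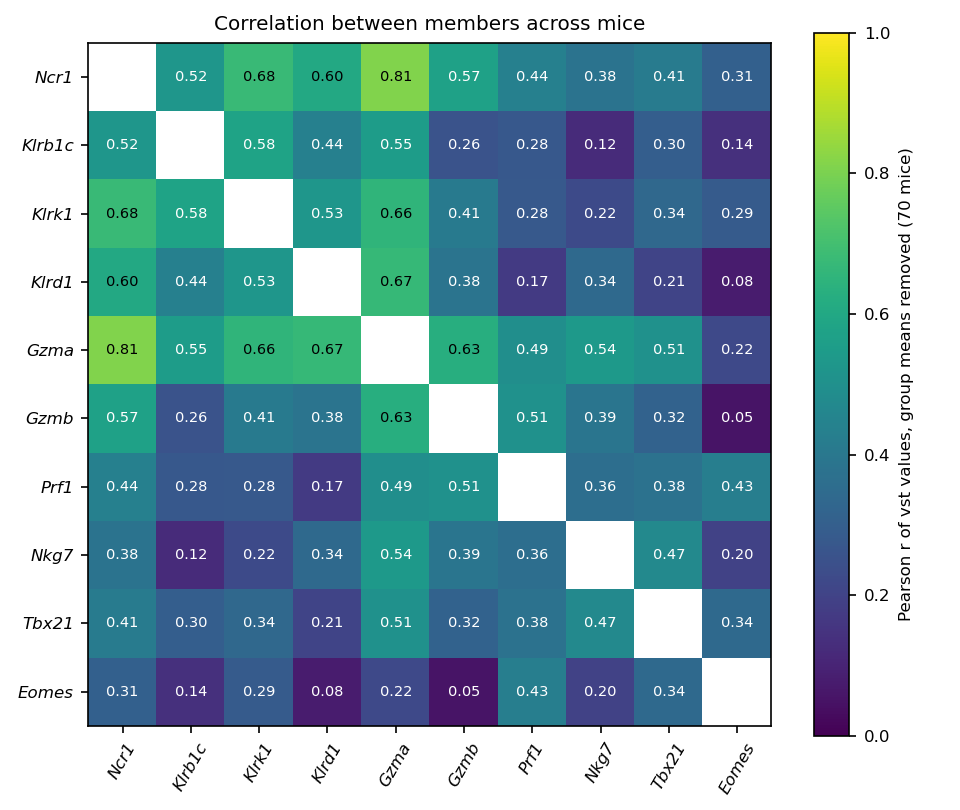
Pearson r of vst values between members (both axes) over 70 mice after removing group means, with colour from 0 to 1. Ncr1 with Gzma is the highest at 0.81, and Gzmb with Eomes the lowest at 0.05.

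The genes whose within-group pattern was most like the mean of the 10 z-scored members were Ccl5 (r = 0.82), a chemokine stored by cytotoxic lymphocytes, Serpinb6b (0.61), a serpin, and the receptor genes Klrc1 (NKG2A, 0.61), Klra3 (a Ly49 receptor, 0.60), Klri2 (0.54) and Klre1 (0.53). Ada (0.53), adenosine deaminase, and Id2 (0.52), a regulator of NK development, completed the 8. The median over all genes was 0.01. With total-count scaling the same 8 genes gave 0.68 to 0.93. On levels, without removing group means, the 8 were Ccl5 (0.83), Klra3 (0.67), Klrc1 (0.65), Klri2 (0.61), Klre1 (0.56), Lgals1 (0.52), Klrg1 (0.52) and Klrb1a (0.51). For comparison, chosen after the values were seen, r within groups was 0.36 for the CD8 gene Cd8a, -0.06 for Cd3e of all T cells, -0.27 for the red cell gene Slc4a1 and -0.35 for the platelet gene Pf4.

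Other genes of the pathway were counted from fixed lists. In BPR21 against control mice, 17 of 20 further NK receptor genes were lower (median -0.22) and 1 passed, Klra3, at -0.61 ± 0.12 (FDR = 0.021). Klrc1 was at -0.39 (FDR = 0.083) and S1pr5, which guides NK cells out of tissue, at -0.35 (FDR = 0.098), while Cd226 was at 0.75 (FDR = 0.076). Of 13 NK cytokine and cytokine or chemokine receptor genes, Cx3cr1 fell by 0.88 ± 0.17 on the log2 scale (FDR = 0.015), a receptor that monocytes also carry. Of 16 genes of the killing machinery, 9 were higher and 7 lower, and the list median was 0.06. Ctsc, the protease that activates granzymes, was the 1 called, lower by 0.52 ± 0.11 (FDR = 0.024). None of 11 receptor adaptors and of 12 further transcription factors passed by limma.

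Markers of other cells in the same comparison differed by list. T cells had 0 of 20 genes called and a median of -0.01 in vst values, with summed levels of 2940 to 6935 CPM in control and 1714 to 4924 in BPR21 mice. The summed levels in this paragraph use total-count scaling. As log2(CPM + 1), the median of all genes differed by -0.38 between these groups. Monocytes had 4 of 13 called lower (Ccr2 -1.08, Ly6c2 -0.72, Ctss -0.59 and Nr4a1 -0.48) and a median of -0.46, with summed levels of 641 to 1956 CPM in control and 370 to 1124 in BPR21 mice. B cells had 0 of 13 called and all 13 lower (median -0.38), platelets 1 of 11 called higher (Pf4, 0.81), and the erythroid list 0 of 30 called with a median of 0.70. The part of these cells in the differences of the members and of Ctsc was not tested, and the members summed to 306 to 702 CPM in control and 142 to 475 CPM in BPR21 mice.

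Other genes of these lists passed in further comparisons. Against control, Klrc1 fell by 0.46 ± 0.12 in HOCl mice (FDR = 0.017). Of 20 further NK receptor genes, 5 were higher and 15 lower there, and Klrc1 was the 1 called, where 4.96% of all genes were. Nfil3, a factor of NK commitment, fell by 0.47 ± 0.10 in E07 against HOCl mice (FDR = 0.0018). It was 1 of 12 further transcription factors called there, with 5 higher and 7 lower, where 7.89% of all genes were called. Neutrophil (median -0.45) and monocyte genes (-0.21) were lower there, and B-cell genes higher (0.50). The part of these cells in the difference of Nfil3 was not tested. Cx3cr1 fell by 0.83 ± 0.14 in D06 against HOCl mice (FDR = 0.022) and by 0.87 ± 0.16 in BPR21 against HOCl mice (FDR = 0.0081). Lat, an adaptor that T cells use as well, was 0.39 ± 0.09 higher in BPR21 against HOCl mice (FDR = 0.027), as was Il7r, the interleukin 7 receptor of the T-cell list, at 0.55 ± 0.10 (FDR = 0.011).

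In D06 against control mice, Cx3cr1 fell by 0.84 ± 0.15 (FDR = 0.0012) and Ets1, a lymphocyte transcription factor, fell by 0.41 ± 0.09 (FDR = 0.0050). Itga2 (0.43 ± 0.10), Cd226 (0.49 ± 0.16) and Srgn (0.39 ± 0.11), which platelets also express, were called higher there. Of all genes, 7.88% were called in D06 against control mice, 4.57% in E07 against D11 and 9.76% in E07 against D06 mice. Cd226, Stx11 and Srgn were called lower in E07 than in D11 mice (-0.57, -0.48 and -0.38) and than in D06 mice (-0.60, -0.54 and -0.44), Itga2 was lower in E07 than in D06 mice (-0.49), and Cx3cr1 was higher there (0.47).

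Between E07 and BPR21 mice, Slamf7 (0.49 ± 0.12), Klrb1b (0.43 ± 0.10), Ikzf3 (0.44 ± 0.13), Cx3cr1 (0.51 ± 0.16) and Ccl5 (0.46 ± 0.12) were higher in E07 mice, with FDR of 0.017 to 0.039. In this comparison 7.26% of all genes were called. Cd226 (-0.87 ± 0.19), Stx11 (-0.65 ± 0.16) and Srgn (-0.55 ± 0.18), which platelets also express, were lower in E07 mice, where 10 of 11 platelet genes were called lower too (median -0.56). The erythroid list had 20 of 30 genes called lower in E07 mice, with the largest median of these lists (-0.80). B-cell genes were called higher in 11 of 13 (median 0.66), and monocyte genes in 3 of 13 (Ccr2 0.63, Ly6c2 0.38 and Ctss 0.38, list median 0.18). The part of these cells in the difference of Ncr1 and Gzma was not tested.

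**Figure D5:**
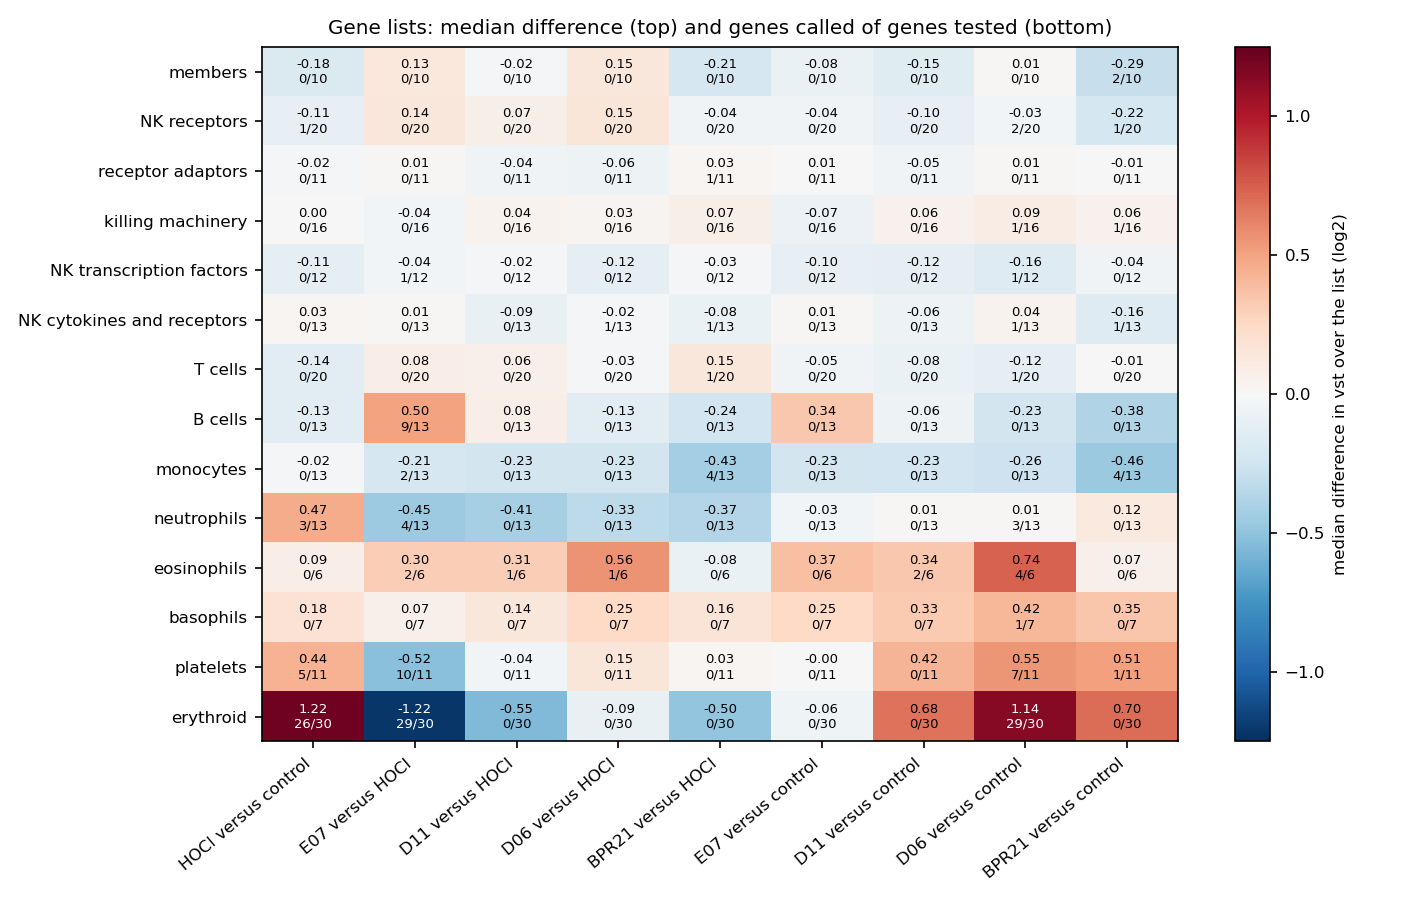
Median difference in vst value (log2, colour and upper number) and genes called of genes tested (lower number) for the members and 13 other lists (y axis) in 9 comparisons (x axis). The members reach -0.29 with 2 of 10 called in BPR21 against control mice, where the T-cell list is at -0.01 and the monocyte list at -0.46.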

How the data were processed

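Whole-blood RNA of 71 mice was analysed. The authors depleted globin transcripts, selected poly A RNA, sequenced strand-specific libraries, trimmed reads with Cutadapt, aligned them to mm39 with STAR and counted them per gene with FeatureCount. Versions of these tools are not given in the study's mouse methods. The deposited counts cover 55416 genes, and the authors also deposited vst values on a log2 scale for 10508 protein-coding genes and 70 mice. The 10 members and all gene lists were chosen with earlier results of these data known. Groups came from sample titles, and mice are separate animals.

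Vst values were compared with limma 3.58.1 (R 4.3.3) in a fit of the 2 groups compared, and a gene was called where its fold-change reached 1.3 and its FDR (Benjamini-Hochberg over all genes) did not exceed 0.05. The study's methods name limma on vst values and both thresholds, but not which groups entered a fit. The F-test over 6 groups used the FDR alone. A difference is the first group minus the second. Alternatives used edgeR 4.0.16 and DESeq2 1.42.0 on counts, total-count scaling (log2 of CPM plus 1, for 10501 genes paired by symbol), other fits, covariates and mice left out. The erythroid score is the mean z-scored vst value of 30 genes. Named genes were the members, list genes passing both thresholds (at most 6 a list), further list genes named with their values after these were seen, and the 8 genes most like the members. The edgeR and limma tests of HOCl against control mice were tried on simulated data. The planted changes were larger than any vst difference of the members, so the trial does not show how often differences of their size are found. Promoters came from RefSeq (GRCm38.p6). Python 3.11.15, numpy 2.4.6 and pandas 2.3.3 were used.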

Additional observations from a re-analysis of the deposited data

Results flagged for a closer look

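Ncr1 and Gzma differed between mice given different treatments by the direct limma test of E07 against BPR21 mice. Ncr1 was 0.49 higher (log2, FDR = 0.038) in E07 mice and Gzma 0.43 higher (FDR = 0.048). This pair of groups was chosen with the group means known, and 7.26% of all genes passed. With the erythroid score as a covariate neither gene passed (FDR = 0.67 and 0.65). Of 24 fits that left out 1 mouse, 12 lost the call of Ncr1 and 17 that of Gzma. Against the same HOCl mice, Ncr1 differed by 0.26 in E07 and by -0.23 in BPR21 mice, and Gzma by 0.20 and by -0.23. Neither treatment passed the threshold for either gene against HOCl mice. The groups hold 11 or 12 mice, so single mice were not tested for lying apart.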

How the results depend on the processing

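The counts of members called were recomputed under 10 or more settings for most comparisons, and 181 recomputed counts stayed within 1.5 times of the reported one while 49 did not. With total-count scaling they became 7 (HOCl against control), 7 (E07 against HOCl), 8 (D06 against control), 8 (BPR21 against control), 10 (E07 against BPR21) and 9 (F-test). In that F-test 7870 of 10501 genes passed, and the shares for the pairs are given above. edgeR without a filter on low counts gave 1 for HOCl against control (Ncr1), where it called 712 of 26190 genes higher and 100 lower. DESeq2 gave 2 for D06 against HOCl (3.24% of the 6734 genes with an FDR), and edgeR gave 2 for the F-test (14.5% of 15038 genes). With the erythroid score as a covariate, 1 member was called for BPR21 against HOCl (230 of 10508 genes in all), 0 for BPR21 against control and 0 for E07 against BPR21. The last 2 of these fits called 0 of 10508 genes each. The F-test with that covariate gave 3 members (Ncr1, Gzma and Tbx21), where 349 of 10508 genes passed. Centring each mouse on its median, an alternative chosen after seeing the data, left 1 in BPR21 against control (Gzma, with Ncr1 at FDR = 0.0502) and 1 in E07 against BPR21 (Ncr1). Of 10508 genes, centring called 16 higher and 32 lower in the first and 137 higher and 644 lower in the second. One fit of all 6 groups left 1 in E07 against BPR21 (Ncr1, with Gzma at FDR = 0.051) and gave 3 in BPR21 against control. It called 174 of 10508 genes higher and 528 lower in the first, and 281 higher and 125 lower in the second. Leaving out 1 mouse at a time gave 0 to 2 members for HOCl against control, 0 to 3 for BPR21 against control, 0 to 2 for E07 against BPR21 and 0 for E07 against HOCl. In the first 3 of these, the fits called 380 to 676, 19 to 650 and 436 to 1012 of 10508 genes. In D11, D06 and BPR21 against HOCl, where each HOCl mouse but of the treated mice only D11 mouse 10 was left out, the count was 0. The alternatives for E07 against BPR21, and leaving out mice in BPR21 against control, were chosen after seeing the data. The cause of these changes was not tested.

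Mouse numbers are shared between groups but name different animals. Deviations of same-numbered mice correlated by 0.01 to 0.15 on average over 9 comparisons. For mice of other numbers the averages ran from -0.0097 to 0.0005. Each comparison had a same-numbered pair at or under 0.1, but a single low pair cannot exclude a batch shared by number. Such a batch was not tested. A replicate block on mouse number gave the following: 3 members called in BPR21 against control (Ncr1, Gzma and Tbx21), 2 in E07 against BPR21 and 4 by the F-test, and 0 in the other 8 comparisons. In BPR21 against control it called 431 of 10508 genes higher and 103 lower, against 16 and 37 in the main fit. In E07 against BPR21 it called 146 higher and 627 lower, and 1983 genes passed the F-test.

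Few counts limit Tbx21, with a median of 78 per mouse, and Klrb1c, with 143.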
